A study of Mus musculus with 28 samples.

Results

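Cytochrome c oxidase, complex IV of the mitochondrial respiratory chain, is described here through the transcripts of 10 of its subunit genes in mouse brain. The genes were listed by name because cuprizone, the compound used to strip myelin, chelates copper and complex IV cannot work without it. They are mt-Co1, mt-Co2 and mt-Co3, which are encoded in mitochondrial DNA, and Cox4i1, Cox5a, Cox5b, Cox6a1, Cox6b1, Cox6c and Cox7c, which are encoded in the nucleus. These are 10 of the 55414 genes in the tables. All 10 had counts in all 28 libraries, and all 10 passed the filter on low counts.

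Complex IV passes electrons from cytochrome c to oxygen and pumps protons across the inner mitochondrial membrane. Its copper sits in the catalytic core, in the subunits made from mt-Co1 and mt-Co2, while mt-Co3 completes the core without binding copper and the nuclear subunits surround it and stabilise or regulate it. Mature oligodendrocytes, which make myelin, are the cells that cuprizone kills most readily in brain. Messenger RNA was measured here, not the protein, the copper or the activity of the enzyme.

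RNA from whole brain was sequenced from polyadenylated 3′ ends in 4 groups of 7 samples. The stages sampled were the peak of demyelination and remyelination, both in TNFR1ff mice, which carry a floxed TNFR1 gene, were backcrossed to C57BL/6 and keep TNFR1 in their cells. The knockout group, mgTNFR1KO, was taken in remyelination and carried Cx3cr1-CreER with Tnfr1ff, so that tamoxifen removed TNFR1 from microglia. Naive TNFR1ff mice were the baseline. The design codes the stages as CPZ0, CPZ5 and CPZ6+1 without a unit, and all 4 groups share the floxed allele. Cre was driven from Cx3cr1, which marks microglia and related macrophages. The dose of cuprizone, the age of the mice and whether TNFR1ff mice also received tamoxifen are not stated in the sources used here. Those sources speak of samples, 7 per group, so p-values measure the spread between these samples. In whole brain, fewer cells of a type and less RNA per cell cannot be told apart.

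Library totals ran from 1522913 to 3137254 counts, and the 10 genes took between 2.1 and 3.87% of them. The most abundant gene, ENSMUSG00000119584.1, took 1.33% of knockout library 1 and 25.5% of naive library 1, the extremes of their groups and of the series. It was 5.68 to 15.4% in demyelination and 5.84 to 14.9% in remyelination libraries. Transcripts of mitochondrial DNA took 8.39 to 14.5% across all groups. The targeted gene, Tnfrsf1a, averaged 22.1 ± 4.22 CPM (counts scaled to library size, with TMM factors) in knockout and 23.2 ± 4.47 CPM in control remyelination libraries (SD, n = 7 each), and a 3′ tag does not report on a deletion elsewhere in the gene. Cx3cr1, for which the CreER line is named, was lower in knockout than in control remyelination (log2 fold change −0.89, SE 0.183, adjusted p = 0.0365, edgeR quasi-likelihood test), a call kept in 9 of 22 alternative settings. Markers of neurons summed to between 5804 and 7023 CPM over all 28 libraries, and those of oligodendrocytes to between 2561 and 7208 CPM.

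The mitochondrially encoded subunits were the most abundant members. mt-Co1 makes the subunit that reduces oxygen at a haem and copper centre. Its lowest, median and highest values were 3262, 3838 and 4694 CPM in naive, 3262, 3642 and 4375 CPM in demyelination, 3345, 3760.2 and 4423 CPM in knockout remyelination and 3732, 4163 and 4604 CPM in control remyelination libraries. The 4 ranges overlapped throughout, and the highest single value came from a naive library. mt-Co2 makes the subunit whose copper centre takes electrons from cytochrome c. It ran over 9539.9, 10461 and 13568 CPM in naive, 8706, 10416 and 15219.5 CPM in demyelination, 7164, 9378 and 14568 CPM in knockout remyelination and 8207, 10993 and 15179.9 CPM in control remyelination libraries. High and low libraries of mt-Co2 occurred in every group, and its within-group spread (SD of log2 CPM 0.279) was larger than that of 90.1% of the 606 genes at least as abundant as the lowest member. mt-Co3 ran over 8352, 10643 and 12484 CPM in naive, 8590.1, 9659 and 12260.3 CPM in demyelination, 8517, 9680.5 and 12849 CPM in knockout remyelination and 9021, 10432 and 11437 CPM in control remyelination libraries, again with full overlap. The 3 genes together held 40.5 to 41.5% of all mitochondrial mRNA on average in each group.

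Among the nuclear members, Cox5b, a subunit that binds zinc, was the least variable, with a within-group SD of log2 CPM of 0.101. Only 1.16% of the 606 genes at least as abundant as the lowest member had a smaller spread. Cox5b had lowest, median and highest values of 501, 553 and 590.0 CPM in naive, 544, 605 and 654 CPM in demyelination, 595, 697 and 799 CPM in knockout remyelination and 581, 625 and 654 CPM in control remyelination libraries. Every knockout library lay above every naive library, as in 0.563% of all genes, while all other pairs of groups overlapped. Cox6b1, which joins the monomers of the dimeric enzyme, ran over 182, 214 and 233 CPM in naive, 176, 228 and 272 CPM in demyelination, 227, 253 and 369.6 CPM in knockout remyelination and 200.1, 230.1 and 256 CPM in control remyelination libraries. Its top value, in knockout library 1, stood well above the other 27 libraries.

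Cox4i1 and Cox5a, whose proteins join each other early in assembly, were lowest in naive libraries by mean. Cox4i1 had 213, 353 and 410.0 CPM in naive, 313, 402 and 522 CPM in demyelination, 366, 411 and 517 CPM in knockout remyelination and 338, 382 and 444 CPM in control remyelination libraries. The 213 CPM is naive library 1, the library with the largest share of ENSMUSG00000119584.1. Cox5a had 344, 359 and 426 CPM in knockout remyelination and 273, 322 and 335 CPM in naive libraries, which did not overlap. Such an upward separation of these groups was seen in 0.563% of all genes. The Cox5a ranges in demyelination (309 to 406 CPM) and control remyelination (278 to 427 CPM) overlapped both. Cox6a1, the form of subunit VIa found outside heart and skeletal muscle, ran from 356 to 424 CPM in naive, 366 to 495 CPM in demyelination, 430 to 591 CPM in knockout remyelination and 387 to 514 CPM in control remyelination libraries. For Cox4i1, Cox5a, Cox5b, Cox6a1 and Cox6b1 the mean was highest in knockout remyelination and lowest in naive mice, and groups next to each other in the order of means overlapped.

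Cox6c and Cox7c, small single-pass membrane subunits, had another order. Cox6c averaged 575 ± 107 CPM in demyelination, 570.3 ± 63.0 CPM in knockout remyelination and 594 ± 81.7 CPM in control remyelination, against 629 ± 83.4 CPM in naive mice (SD, n = 7 each), so its naive mean was the highest. Cox7c averaged 901 ± 155 CPM in demyelination, 874 ± 171 CPM in knockout remyelination and 865 ± 155 CPM in control remyelination, against 859 ± 136 CPM in naive mice. Its within-group spread (0.271 on the log2 scale) exceeded that of 88.4% of the 606 genes at least as abundant as the lowest member.

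**Figure D1:**
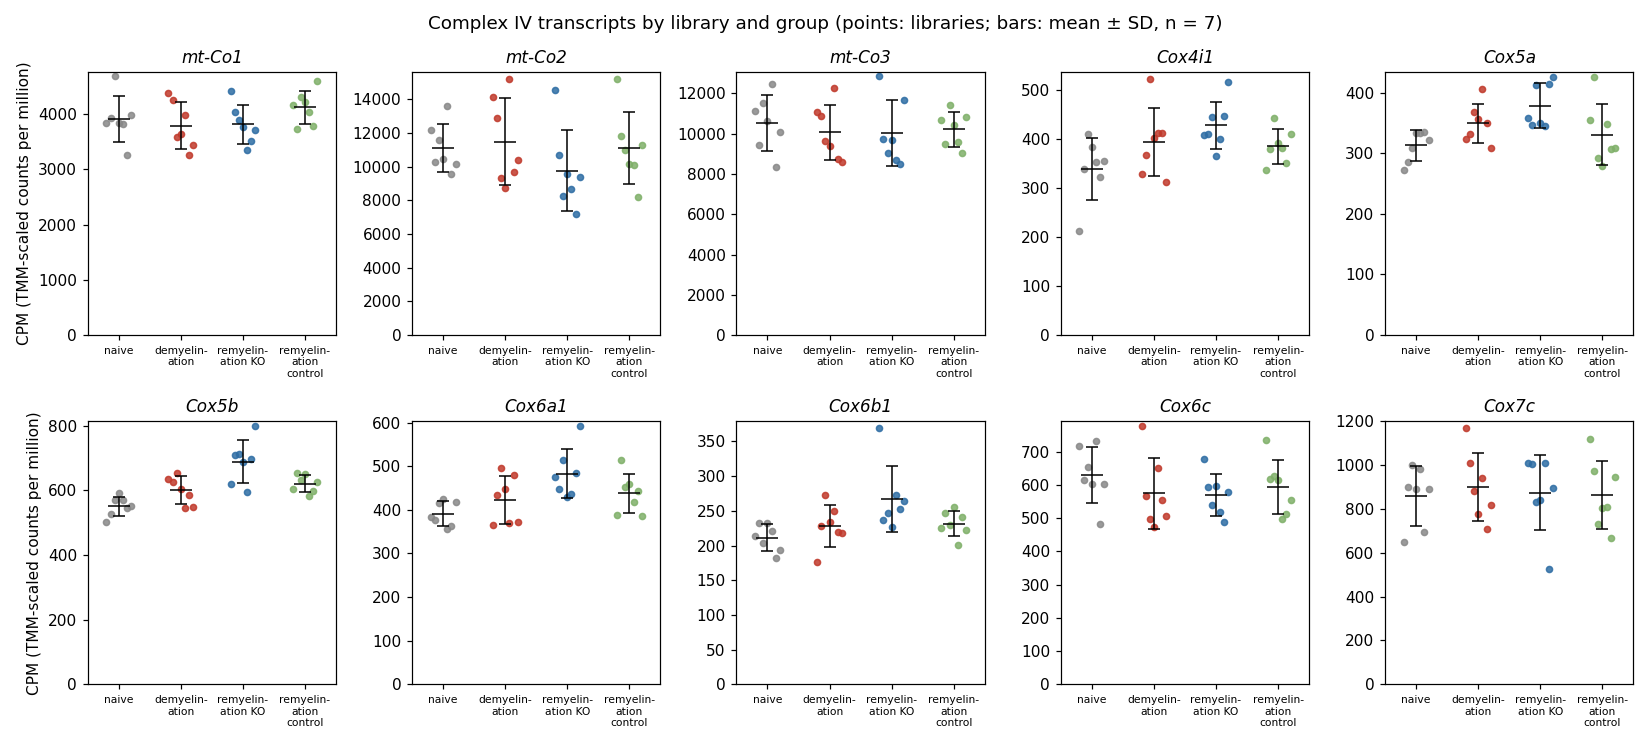
Level of each of the 10 complex IV transcripts (y axis, TMM-scaled CPM from 0) in naive, demyelination, knockout remyelination and control remyelination libraries (x axis); points are libraries, bars are mean ± SD, n = 7. Ranges overlap in most panels; Cox5b runs from 595 to 799 CPM in knockout remyelination and from 501 to 590.0 CPM in naive libraries, and 1 knockout library of Cox6b1 stands at 369.6 CPM.

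The first comparison asked whether complex IV transcripts changed at the peak of demyelination, the stage at which myelin loss is greatest. None of the 10 passed the test. With the edgeR quasi-likelihood test and Benjamini-Hochberg adjustment over 12423 genes, 0 of 10 members were called at an adjusted p below 0.05 in demyelination against naive mice, where 2.0% of all genes were called. The count was also 0 at an unadjusted p below 0.05 (13.3% of all genes) and 0 with DESeq2. The fitted log2 fold changes ran from −0.13 for Cox6c to 0.21 for Cox4i1, with a median of 0.09 beside −0.005 for all genes tested.

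The intervals, taken for each gene alone, show how large a change in its whole-brain level the data allow. Changes within a single cell type were not measured. Over the 10 members the 95% confidence intervals of the log2 fold change lay between −0.34 and 0.43, which is 0.787-fold to 1.35-fold. mt-Co1 averaged 3792 ± 422 CPM in demyelination and 3908 ± 420 CPM in naive mice (SD, n = 7 each; log2 fold change −0.04, interval −0.22 to 0.13, adjusted p = 0.878, edgeR). mt-Co2 averaged 11480.1 ± 2577 CPM in demyelination and 11106 ± 1408 CPM in naive mice (log2 fold change 0.05, interval −0.22 to 0.32, adjusted p = 0.916, edgeR). In the same libraries all 10 oligodendrocyte markers tested fell, by a median log2 fold change of −1.31, and Mal, a myelin proteolipid, averaged 68.0 ± 16.4 CPM in demyelination and 273 ± 34.8 CPM in naive mice. Of 11 microglial markers edgeR called 8 higher and 0 lower, where 2.0% of all genes were called. P2ry12 (log2 fold change −0.49, adjusted p = 0.255, edgeR) and Tmem119 (−0.18, adjusted p = 0.830, edgeR) were below 0 and did not pass. Aif1 (1.10, adjusted p = 0.121, edgeR) did not pass either. Of 10 neuronal markers 0 were called by edgeR or by DESeq2 (1 at an unadjusted p below 0.05). The part of these cell types in the members' values was not tested.

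**Figure D2:**
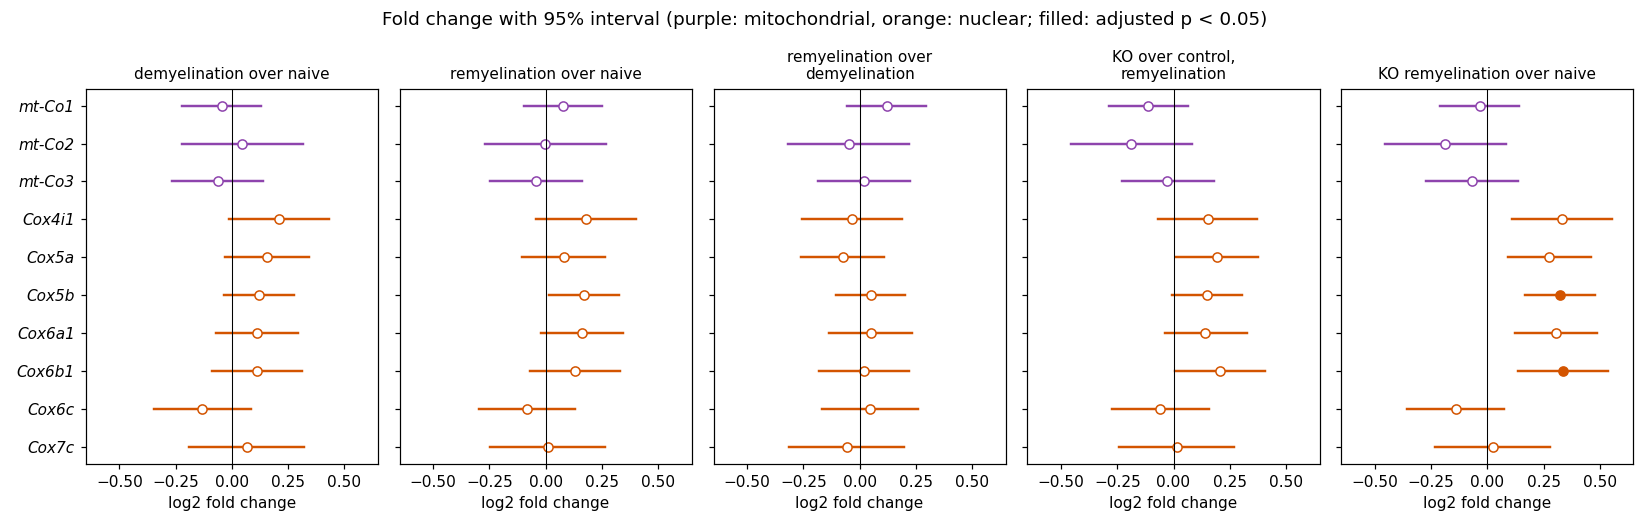
Log2 fold change (x axis) of each complex IV transcript (y axis) with its 95% confidence interval in 5 comparisons, from edgeR with 7 libraries per group; purple marks mitochondrial and orange nuclear members, and filled points have an adjusted p below 0.05. Only Cox5b (0.32) and Cox6b1 (0.34) in knockout remyelination over naive are filled.

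Remyelination follows the withdrawal of cuprizone, and no member passed the test there either. In control remyelination against naive mice 0 of 10 members were called by edgeR (background 0.628% of genes) and 0 by DESeq2. Cox5b alone had an unadjusted p below 0.05, as did 10.4% of all genes. It averaged 621 ± 27.3 CPM in control remyelination and 551 ± 29.7 CPM in naive mice, a log2 fold change of 0.17 (SE 0.0770, adjusted p = 0.398, edgeR). The members' fold changes ran from −0.08 to 0.18 on the log2 scale, with 7 of 10 above 0 and a median of 0.08, beside 0.002 for all genes.

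Remyelination set directly against demyelination, where 9 of 10 oligodendrocyte markers rose, also left every member short of the threshold. The count was 0 of 10 by edgeR (background 0.386% of genes), 0 at an unadjusted p below 0.05 (6.65% of genes) and 0 by DESeq2. Here mt-Co1 had the smallest p of the members, with 4123 ± 301 CPM in remyelination and 3792 ± 422 CPM in demyelination (SD, n = 7 each; log2 fold change 0.12, SE 0.0866, adjusted p = 0.888, edgeR). All intervals of the 10 members lay between 0.802-fold and 1.23-fold.

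Deletion of TNFR1 from microglia was compared within remyelination. No member passed the test in knockout against control mice: 0 of 10 were called by edgeR (background 0.0483% of genes) and 0 by DESeq2. Cox5a and Cox6b1 had an unadjusted p below 0.05, as did 7.49% of all genes. Cox5a averaged 379 ± 36.5 CPM in knockout and 331 ± 50.5 CPM in control mice (SD, n = 7 each; log2 fold change 0.19, SE 0.0910, adjusted p = 0.646, edgeR). Cox6b1 averaged 267 ± 47.8 CPM in knockout and 232 ± 18.4 CPM in control mice (log2 fold change 0.21, SE 0.0984, adjusted p = 0.649, edgeR). The 3 mitochondrial members were all below 0 (−0.19 for mt-Co2, −0.11 for mt-Co1 and −0.03 for mt-Co3) and 6 of the 7 nuclear members above 0, with overlapping ranges throughout. The signs of mt-Co3, of Cox6c (−0.06) and of Cox7c (0.01) turned under some alternatives, to 0.07 for mt-Co3 and 0.04 for Cox6c with the mitochondrial share as a covariate and to −0.02 for Cox7c without naive library 1 and knockout library 1. The mitochondrial share itself includes the counts of mt-Co1, mt-Co2 and mt-Co3.

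The contrast with the largest differences was knockout remyelination against naive mice, which was added after the data had been seen. Stage, genotype and Cre differ between these groups, whether tamoxifen also does is not stated, and their parts cannot be told apart. Cox5b and Cox6b1 rose, 2 of 10 members, where 3.24% of all genes were called and 1.54% were called higher. Cox5b averaged 688 ± 67.1 CPM in knockout remyelination and 551 ± 29.7 CPM in naive mice (SD, n = 7 each), a log2 fold change of 0.32 (SE 0.0770, 1.25-fold, adjusted p = 0.0139, edgeR). Cox6b1 averaged 267 ± 47.8 CPM in knockout remyelination and 211 ± 19.1 CPM in naive mice, a log2 fold change of 0.34 (SE 0.0990, 1.26-fold, adjusted p = 0.0490, edgeR).

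The Cox5b call was lost without knockout library 7, its highest, with an adjusted p of 0.0615 by edgeR, and was kept in 20 of 22 alternative settings. The Cox6b1 call was kept in 7 of 22. Without knockout library 1 its log2 fold change was 0.25, with an adjusted p of 0.0911 by edgeR. Cox6a1 (log2 fold change 0.31, adjusted p = 0.0512, edgeR), Cox4i1 (0.33, adjusted p = 0.0850) and Cox5a (0.27, adjusted p = 0.0873) had similar sizes and did not pass. DESeq2 called all 5 of these nuclear members, where it called 4.91% of all genes with an adjusted p, and the same 5 had an unadjusted p below 0.05 in edgeR, as did 18.9% of all genes. Cox5a, Cox5b and Cox6a1 were higher in every knockout library than in every naive library, a separation seen upward in 0.563% of all genes. The remaining 5 members stayed between −0.19 for mt-Co2 and 0.02 for Cox7c.

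Haemoglobin transcripts and some markers of other cells differed in the same contrast. All 4 of the red blood cell markers tested rose, and their sum ran from 514 to 1143 CPM in knockout remyelination and from 251 to 504 CPM in naive libraries. Microglial markers summed to between 341 and 446 CPM in knockout remyelination and between 188 and 257 CPM in naive libraries. Of 11 microglial markers edgeR called 6 higher and 1 lower, the lower one being P2ry12 (log2 fold change −0.71, adjusted p = 0.0457, edgeR). Of 9 astrocyte markers 2 rose, Gfap by 1.59 and Vim by 0.89 on the log2 scale (adjusted p = 1.42e-06 and 1.23e-06, edgeR). Of 4 choroid plexus markers tested Ttr rose, by 0.56 on the log2 scale, and Enpp2 (0.06), Clic6 (−0.06) and Kl (−0.43) were not called. The part of these cells in the Cox5b and Cox6b1 values was not tested.

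Summed by genome, the members were also set against each other as a ratio. The 3 mitochondrial transcripts over the 7 nuclear ones gave 7.29 ± 0.944 in demyelination, 7.34 ± 0.552 in control remyelination, 6.37 ± 0.848 in knockout remyelination and 7.76 ± 0.781 in naive libraries (SD, n = 7 each). These are ratios of 3′ tags, given as a description with no test. The lowest, median and highest ratios were 5.72, 6.08 and 8.13 in knockout remyelination and 7.20, 7.27 and 9.21 in naive libraries. Of the 7 knockout libraries 6 lay below every naive library, and knockout library 1 lay within the naive range. The difference in mean log2 ratio was −0.29 for knockout remyelination against naive mice and −0.21 against control remyelination. In knockout remyelination against naive mice 2 of the 10 other mitochondrial mRNAs had log2 fold changes above 0 (median −0.10). The 2 mitochondrial rRNAs had −0.34 and −0.25, and the nuclear complex V genes had a median of 0.22. Of these genes edgeR called 0. Whether the ratio is particular to complex IV was not tested.

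**Figure D3:**
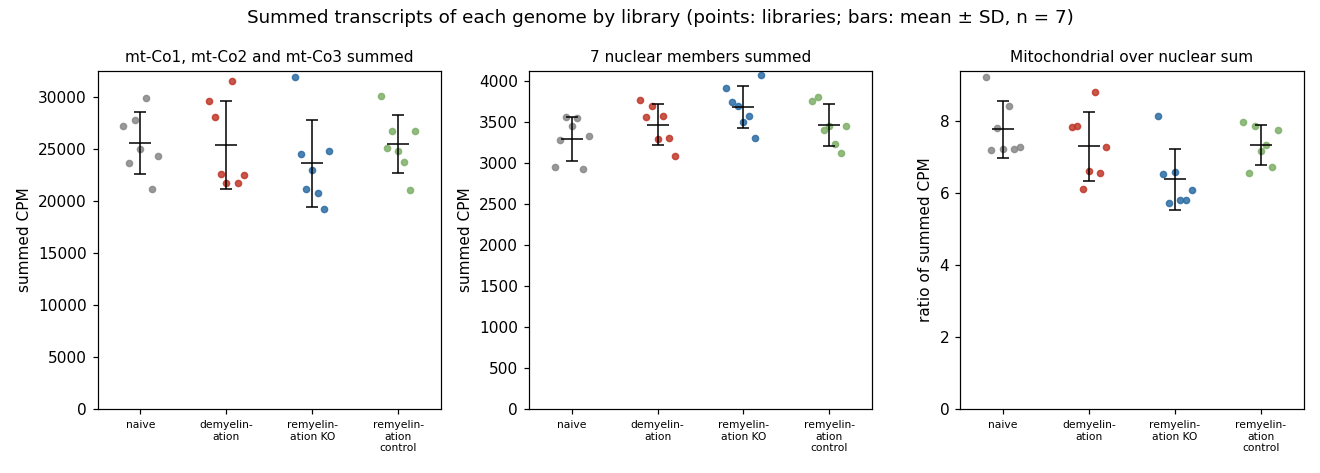
Summed CPM of mt-Co1, mt-Co2 and mt-Co3 (left), summed CPM of the 7 nuclear members (middle) and the ratio of these sums (right) in naive, demyelination, knockout remyelination and control remyelination libraries; points are libraries, bars are mean ± SD, n = 7, and each y axis starts at 0. The mean ratio is 6.37 in knockout remyelination and 7.76 in naive libraries, with 1 knockout library at 8.13.

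Across libraries the members' values followed each other in pairs of unequal strength. Of 45 pairs correlated over 28 libraries (log2 CPM, 100000 permutations each), 19 passed Benjamini-Hochberg adjustment of the permutation p of Pearson's r, 18 of them positive. All 10 pairs among mt-Co1, mt-Co2, mt-Co3, Cox6c and Cox7c passed, as did 8 of the 10 pairs among Cox4i1, Cox5a, Cox5b, Cox6a1 and Cox6b1, sets that were named after the values were seen. All 28 libraries share the scaling by library, and the groups are pooled in these values.

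The closest pair joined the genomes. mt-Co2 and Cox6c had a Pearson's r of 0.802 and a Spearman's rho of 0.799 (adjusted permutation p = 0.000113 for r and 0.00015 for rho). Without the 2 libraries farthest from the median of mt-Co2, r was 0.786. It was 0.847 after removal of group means and between 0.827 and 0.951 within the 4 groups. Replicate number was not removed. Library 1 was the highest for both genes in knockout and control remyelination, and library 5 was in naive mice. In demyelination the highest was library 5 for mt-Co2 and library 1 for Cox6c. mt-Co3 and Cox6c (r = 0.747, rho = 0.759) and mt-Co2 and mt-Co3 (r = 0.752, rho = 0.726) were nearly as close, with adjusted permutation p-values of 0.000113 for both r, and 0.000225 and 0.00015 for rho in that order. Without the 2 farthest libraries their r was 0.703 and 0.749. A raw p of 1e-05 is the smallest that 100000 permutations can give.

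Within the second set, Cox5b and Cox6a1 were closest (r = 0.753, rho = 0.737, adjusted permutation p = 0.000113 for r and 0.00015 for rho, and r = 0.664 without the 2 farthest libraries). Removal of group means lowered it to 0.563, and within groups it ran from 0.378 in naive to 0.713 in knockout remyelination libraries. Cox4i1 and Cox5b (r = 0.682, rho = 0.55, adjusted permutation p = 0.000643 for r and 0.0101 for rho, r = 0.645 without the 2 farthest) fell within the same set. The negative pair was mt-Co2 with Cox6a1 (r = −0.47, rho = −0.485, adjusted permutation p = 0.03 for r and 0.0237 for rho, r = −0.393 without the 2 farthest). Cox4i1 with Cox6c had r = −0.35 and rho = −0.244 and did not pass (adjusted permutation p = 0.137 for r and 0.35 for rho).

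**Figure D4:**
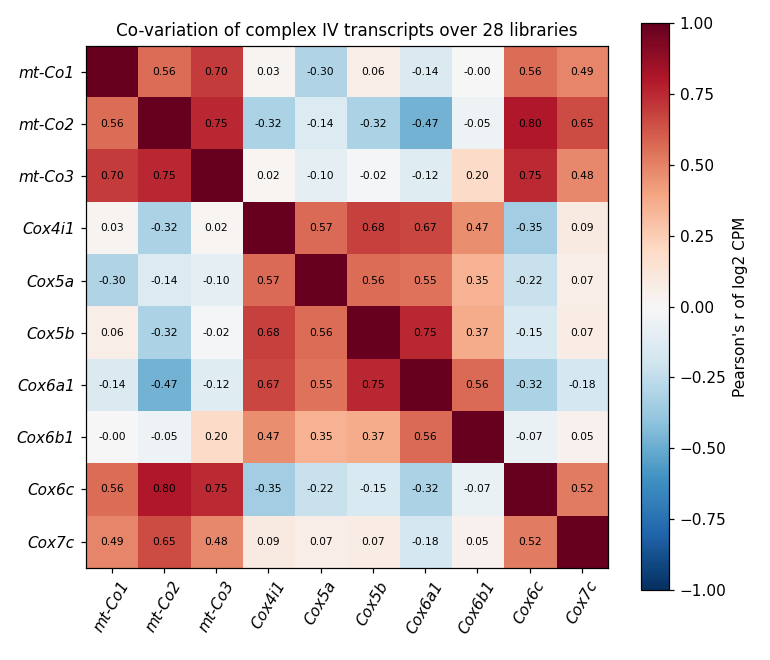
Pearson's r of log2 CPM over 28 libraries for each pair of complex IV transcripts, from −1 in blue to 1 in red, genes on both axes in the same order. Positive values join the mitochondrial transcripts with Cox6c and Cox7c (0.802 for mt-Co2 with Cox6c) and join Cox4i1 to Cox6b1 along the diagonal (0.753 for Cox5b with Cox6a1).

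Among all other genes tested, those most like the mean of the 7 nuclear members over 28 libraries were Eef1g (r = 0.801), Rpl3 (0.796), Atp5e (0.795), Rpl41 (0.794) and Fabp5 (0.775). Eef1g is a translation elongation factor, Rpl3 and Rpl41 are ribosomal proteins, Atp5e is a subunit of ATP synthase and Fabp5 binds fatty acids. Those most like the mean of the 3 mitochondrial members were mt-Nd5 (0.818) and mt-Cytb (0.804), which encode subunits of complexes I and III, followed by Gdap1 (0.803), Sept7 (0.786) and Gm45263 (0.779). These were picked as the highest of all genes and are given as a description with no test.

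The proximal promoters of the nuclear members are shown because several of these genes varied together and are textbook targets of the nuclear respiratory factors. RefSeq promoter windows on GRCm38.p6, from 250 bases before to 50 bases after the gene start, were found for 5 of the 7 (Cox5a, Cox5b, Cox6a1, Cox6b1 and Cox7c). Capitals mark matches to the palindrome bound by NRF1, in which the sixth base is free, or to CCGGAAG, the ETS core bound by GABPA, on either strand. Cox5b and Cox6a1 were the closest nuclear pair, Cox6b1 was called with Cox5b, and Cox7c varied with the mitochondrial transcripts.
Cox5b, chr1:36691237-36691536, plus strand: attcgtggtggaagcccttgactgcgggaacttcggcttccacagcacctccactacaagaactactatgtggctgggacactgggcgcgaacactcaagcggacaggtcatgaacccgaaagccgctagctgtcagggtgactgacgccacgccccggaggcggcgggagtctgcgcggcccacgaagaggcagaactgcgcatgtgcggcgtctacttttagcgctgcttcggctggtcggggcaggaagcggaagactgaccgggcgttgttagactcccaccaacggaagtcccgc
Cox6a1, chr5:115348909-115349208, minus strand: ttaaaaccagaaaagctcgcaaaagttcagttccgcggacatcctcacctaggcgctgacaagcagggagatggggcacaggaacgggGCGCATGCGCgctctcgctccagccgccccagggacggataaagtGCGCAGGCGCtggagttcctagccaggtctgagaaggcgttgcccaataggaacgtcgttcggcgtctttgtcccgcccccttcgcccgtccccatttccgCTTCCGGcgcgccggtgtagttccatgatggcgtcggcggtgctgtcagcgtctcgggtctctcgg
Cox6b1, chr7:30626065-30626364, minus strand: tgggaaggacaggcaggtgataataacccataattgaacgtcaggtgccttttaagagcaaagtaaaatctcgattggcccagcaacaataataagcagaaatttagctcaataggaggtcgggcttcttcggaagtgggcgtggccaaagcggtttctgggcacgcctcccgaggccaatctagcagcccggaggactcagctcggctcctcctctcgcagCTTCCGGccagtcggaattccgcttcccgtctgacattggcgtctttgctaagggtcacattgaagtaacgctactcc
Cox7c, chr13:86046746-86047045, minus strand: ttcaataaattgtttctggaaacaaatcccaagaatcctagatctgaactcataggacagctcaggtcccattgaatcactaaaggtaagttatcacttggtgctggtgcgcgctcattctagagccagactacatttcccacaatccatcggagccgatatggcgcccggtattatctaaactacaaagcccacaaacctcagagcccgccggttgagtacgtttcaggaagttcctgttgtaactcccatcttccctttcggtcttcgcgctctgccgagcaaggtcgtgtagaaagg

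Cox6a1 held 2 matches to the NRF1 palindrome, GCGCATGCGC starting 162 bases and GCGCAGGCGC starting 117 bases before the gene start, and an ETS match written CTTCCGG, its reverse complement, 16 bases before it. Cox6b1 held an ETS match 28 bases before its start. NRF1 was thus matched in 1 of the 5 member promoters and in 4.6% of 32851 promoters of the same length, and the ETS core in 2 of 5 and in 8.86%. The YY1 motif AAGATGGCG was matched in 0 of 5 and in 1.4%. Cox5b, Cox5a and Cox7c held none of the 3 exact words, which says only that these letters are not in their windows.

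Genes that serve or neighbour the members in the cell were followed as lists. Of the other subunits of complex IV 6 of 12 were tested and 0 were called by edgeR or DESeq2 in any of the 5 comparisons. Of 13 genes of copper delivery and copper handling, not all of them particular to complex IV, 11 were tested. In demyelination against naive mice edgeR and DESeq2 called 0 of them, and 1 had an unadjusted p below 0.05, Atox1, the cytosolic copper chaperone, with a log2 fold change of 0.32 (SE 0.139, adjusted p = 0.281, edgeR). Cox17, which hands copper to the assembly proteins Sco1 and Cox11, averaged 124 ± 21.3 CPM in demyelination and 119 ± 14.7 CPM in naive mice (SD, n = 7 each). Slc31a1, the copper importer of the plasma membrane, averaged 13.1 ± 2.58 CPM in demyelination and 10.9 ± 2.31 CPM in naive mice, and did not pass (adjusted p = 0.719, edgeR).

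Atox1 rose in knockout remyelination against naive mice, the only gene of this copper list called there. It averaged 40.3 ± 4.89 CPM in knockout remyelination and 27.1 ± 4.49 CPM in naive mice (log2 fold change 0.56, SE 0.137, adjusted p = 0.0162, edgeR). The call was kept in 22 of 22 alternative settings, with adjusted p-values from 0.00695 to 0.0412. In control remyelination against naive mice its log2 fold change was 0.30 (adjusted p = 0.406, edgeR), and in knockout against control remyelination 0.26 (adjusted p = 0.677).

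Lists of the surrounding mitochondrial machinery held no call at demyelination. Of 19 assembly factors, 10 other mitochondrial mRNAs, 14 genes of complexes II and III with cytochrome c, 16 nuclear genes of complex V and 18 genes of mitochondrial mass and biogenesis, edgeR called 0 in demyelination against naive mice, and so did DESeq2. At an unadjusted p below 0.05 these lists had 0, 0, 2, 2 and 2 genes. Their median log2 fold changes were 0.06, −0.03, 0.12, 0.12 and 0.004. The 2 mitochondrial rRNAs had fold changes of −0.38 for mt-Rnr1 (SE 0.135, adjusted p = 0.165) and −0.15 for mt-Rnr2 (SE 0.113, adjusted p = 0.617) in edgeR. In knockout remyelination against naive mice edgeR and DESeq2 called 0 of the 16 complex V genes, 8 had an unadjusted p below 0.05, as did 18.9% of all genes, and the list's median was 0.22, beside 0.003 for all genes.

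Among the mitochondrial lists, only that labelled mitochondrial stress response held calls at demyelination. Not all of its genes are particular to mitochondria, and the source of these calls was not tested. In demyelination against naive mice 2 of its 11 tested genes rose, where 2.0% of all genes were called. Atf5, a transcription factor of the mitochondrial unfolded protein response, averaged 15.3 ± 4.29 CPM in demyelination and 2.78 ± 0.774 CPM in naive mice (SD, n = 7 each; log2 fold change 2.42, SE 0.302, adjusted p = 2.74e-07, edgeR). Ddit3, which encodes the stress factor CHOP, averaged 27.0 ± 5.64 CPM in demyelination and 15.6 ± 2.74 CPM in naive mice (log2 fold change 0.79, SE 0.166, adjusted p = 0.00287, edgeR). Both calls were kept in 22 of 22 alternative settings. Atf5 was lower in remyelination than in demyelination, with 3.60 ± 1.17 CPM in remyelination and 15.3 ± 4.29 CPM in demyelination (log2 fold change −2.06, SE 0.286, adjusted p = 1.28e-05, edgeR). In naive and remyelination libraries Atf5 rested on few counts, which makes the size of its fold changes less certain. Atf4, another gene of this list, did not pass in demyelination against naive mice (log2 fold change 0.26, SE 0.171, adjusted p = 0.549, edgeR). There Hspe1 (0.44, adjusted p = 0.0912), Clpp (0.27, adjusted p = 0.349) and Lonp1 (0.09, adjusted p = 0.846) did not pass in edgeR either. Of the 11 genes 9 had a log2 fold change above 0, while Chac1 (−0.44) and Asns (−0.06) were below it.

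**Figure D5:**
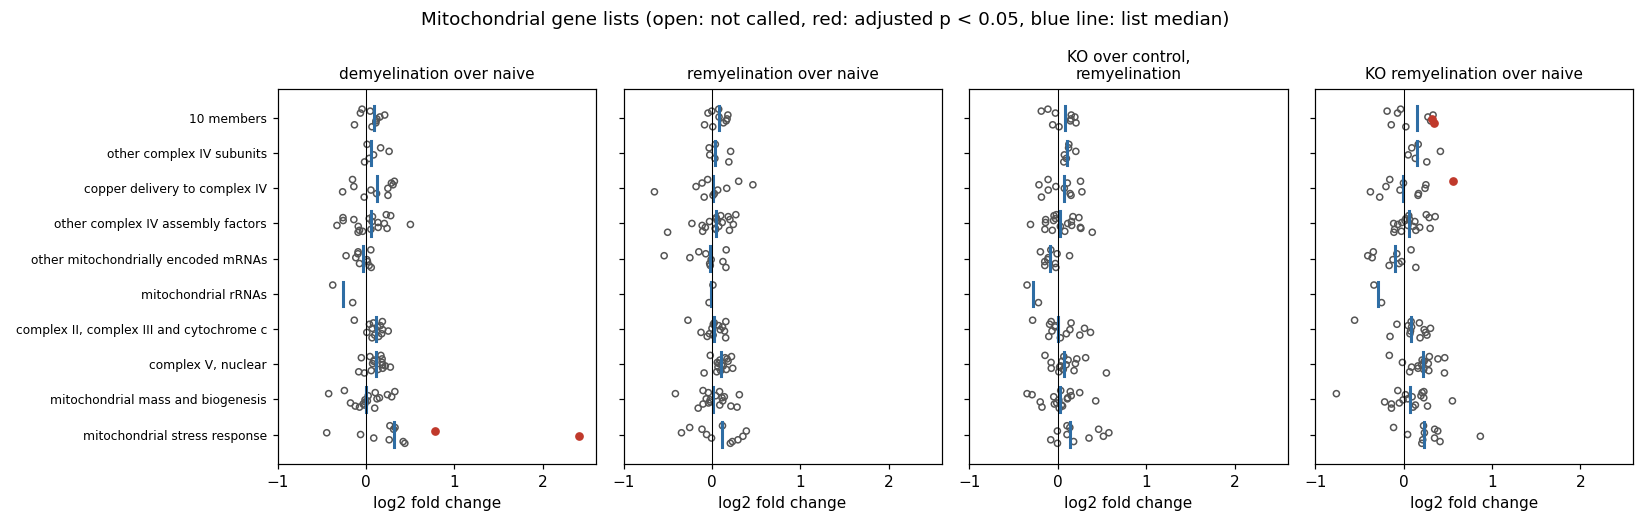
Log2 fold change (x axis) of the 10 complex IV members and of 9 mitochondrial gene lists (y axis) in 4 comparisons; each point is a gene, open when not called and red when the adjusted p is below 0.05, and the blue line is the list median. In demyelination over naive the red points are Atf5 (2.42) and Ddit3 (0.79). In knockout remyelination over naive they are Cox5b, Cox6b1 and Atox1 (0.56). The list labelled copper delivery to complex IV also holds genes of general copper handling, Atox1 among them. That labelled mitochondrial stress response also holds genes not particular to mitochondria.

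Some members have near-identical copies among annotated transcripts. Over stretches of 50 bases, mt-Co1, mt-Co2, mt-Co3, Cox5a, Cox5b, Cox6a1, Cox6c and Cox7c shared sequence with at least 1 other gene, and Cox4i1 and Cox6b1 with none. The copies held few counts: the partners of mt-Co1 averaged 5.27 counts per library in sum, those of Cox7c 13.3, that of Cox5b 2.84 and the others below 0.1. Reads shared with these copies may have been divided between them, and Cox7c carries the largest uncertainty of this kind.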

How the data were processed

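Whole-brain RNA of 28 mouse samples, 7 in each of 4 groups, was measured with the QuantSeq 3′ FWD kit, per the labels' protocols. The authors deposited RSEM gene tables, 1 per library, and their expected counts, RSEM's estimates of the reads of a gene before any normalisation, were used per the file headers. Build GRCm39 and the tools FastQC, cutadapt, STAR, RSEM and edgeR are named in the submitters' processing notes. No source used here gives settings, annotation release or strandedness, so genes that overlap on opposite strands may not be told apart. Between 96.59 and 97.69% of values per library, zeros included, and 89.83 to 92.05% of values above 0 lay within 0.005 of a whole number, and values were rounded; mt-Co1 was whole in 12 and Cox7c in 4 of 28 libraries. Symbols came from GENCODE M21 by identifier, matching 52081 of 55414 genes, so no coordinates on the files' build are given. RefSeq promoter windows are on GRCm38.p6.

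Counts were filtered by filterByExpr (12423 genes left), scaled by TMM and tested with edgeR 4.0.16 quasi-likelihood (R 4.3.3) in 1 fit of all 28 libraries with 4 group means. P-values were adjusted by Benjamini-Hochberg over all genes tested, and a gene was called below 0.05. The common biological coefficient of variation was 19.5%. SEs are the absolute log2 fold change over the root of the F statistic, intervals are 95%. The test was first tested on simulated counts. Correlations of pairs of members used log2 CPM with no prior count. The ranking of other genes by likeness to the members used log2 CPM with a prior count of 1. Replicates differed by more than sampling noise (lowest chi-square per degree of freedom 2.6), so none were merged. The alternatives were library totals, DESeq2 1.42.0, no filter, a replicate block, the mitochondrial share as a covariate, the most abundant gene left out, only the compared groups in the fit, and libraries left out 1 at a time or naive 1 with knockout 1.

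The members, gene lists and comparisons were chosen with earlier results of these data known, and knockout remyelination against naive was added after seeing the data, as were the alternatives for the ratio and for Atf5, Ddit3, Atox1 and Cx3cr1. All 10 members were described. From each list, genes called in a comparison were named, up to 4, or otherwise up to 2 with the smallest p. Cox17, Slc31a1, Atf4, mt-Rnr2 and Cx3cr1 were named for their roles after their values were seen. Hspe1, Clpp, Lonp1, Chac1 and Asns were likewise named after their values were seen.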

Additional observations from a re-analysis of the deposited data

Results flagged for a closer look

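Of 44 groups of 7 values, made of the 10 members and the mitochondrial to nuclear ratio in 4 groups, 3 held a library far from the others, and chance flags about 1 in 20 such groups. All 3 were in knockout remyelination. Cox6b1 was 369.6 CPM in knockout library 1, the highest of its group, with a gap of 0.681 of the group's range to the next library. Cox7c was 528 CPM in knockout library 6, the lowest of its group, with a gap of 0.636 of the range. The log2 ratio of mitochondrial to nuclear members was 3.02 in knockout library 1, the highest of its group, with a gap of 0.606 of the range. Knockout library 1 is also the library with the smallest share of the most abundant gene, 1.33%, and the part of this in its values was not tested.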

How the results depend on the processing

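In the 4 comparisons other than knockout remyelination against naive, no member was called under any alternative run, single libraries left out included. In knockout remyelination against naive mice (2 members called) the count was 1 with library totals, 5 with DESeq2, 0 with no filter, 4 with the replicate block, 1 without naive library 1 and knockout library 1, 1 with only these groups in the fit, and 0 to 3 with single libraries left out, the 0 without knockout library 7. Causes were not tested.

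Counts of all genes called moved by over 1.5 times as follows. For control remyelination against naive (78) they were 132 with DESeq2, 122 with no filter, 147 with the replicate block and 57 to 154 with single libraries left out. For remyelination against demyelination (48) the count was 73 with DESeq2. For knockout against control remyelination (6) it was 13 with DESeq2 and 28 with no filter. For knockout remyelination against naive (403) it was 243 with library totals, 608 with the replicate block, 644 without naive library 1 and knockout library 1, and 146 to 736 with single libraries left out. In demyelination against naive, 162 genes were higher and 87 lower, and with library totals 192 were higher and 59 lower.

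Over all genes, correlations of deviations between same-numbered libraries ran from −0.125 to 0.282. At most 3 of 7 libraries correlated best with their own number, and the main fit did not pair samples. Some members followed the number in part. Library 6 was the lowest for mt-Co2 and mt-Co3 in naive and both remyelination groups, but not in demyelination. Library 1 was the highest for Cox6c and Cox7c in demyelination and both remyelination groups, but not in naive mice. Whether the numbers mark a shared batch was not tested.

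Small log2 fold changes changed sign in 46 of 1100 member values. With library totals mt-Co1 was 0.007 in demyelination against naive, and mt-Co3 −0.012 and Cox6b1 −0.011 in remyelination against demyelination. Cox7c was −0.007 in control remyelination against naive with the replicate block, and without naive library 1 and knockout library 1 it was −0.047 there, −0.023 in knockout against control remyelination and −0.07 in knockout remyelination against naive. With the mitochondrial share as a covariate, mt-Co3 was 0.069 and Cox6c 0.043 in knockout against control remyelination, and mt-Co1 0.048 and mt-Co3 0.032 in knockout remyelination against naive. That share includes the mitochondrial members themselves.

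With single libraries left out, the ranges that crossed 0 were, in demyelination against naive, −0.082 to 0.007 for mt-Co1, −0.029 to 0.109 for mt-Co2 and −0.006 to 0.125 for Cox7c, and in control remyelination against naive −0.068 to 0.067 for Cox7c. In remyelination against demyelination they were −0.146 to 0.026 for mt-Co2, −0.017 to 0.067 for mt-Co3, −0.082 to 0.049 for Cox4i1, −0.031 to 0.067 for Cox6b1, −0.018 to 0.139 for Cox6c and −0.137 to 0.02 for Cox7c. In knockout against control remyelination they were −0.095 to 0.013 for mt-Co3, −0.104 to 0.007 for Cox6c and −0.036 to 0.109 for Cox7c, and in knockout remyelination against naive −0.072 to 0.017 for mt-Co1 and −0.029 to 0.117 for Cox7c.

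Differences in the mean log2 ratio of mitochondrial to nuclear members kept their sign with single libraries left out, except remyelination against demyelination (−0.025 to 0.063).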
